A study of Mus musculus with 6 samples.

Results

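Enteroendocrine cells were followed in AOM/DSS-induced colorectal tumors of mice through 10 genes, *Chga*, *Chgb*, *Gcg*, *Pyy*, *Insl5*, *Cck*, *Sst*, *Tph1*, *Neurog3* and *Neurod1*, out of 54167 genes in the table. They were chosen by name as hormones, granule proteins, an enzyme and transcription factors that mark these cells. RNA was sequenced from 6 tumors, 3 from *Trp53fl/fl* mice, which carry floxed *Trp53* and no Cre, and 3 from *VP* mice, which carry the same floxed alleles together with *Pvillin-Cre*. By the labels and the study's methods, all were male C57BL/6J mice given azoxymethane (AOM, a carcinogen) at 10 mg/kg at the age of 8 weeks and then repeated cycles of 2.5% dextran sulfate sodium (DSS, which injures the colon lining) in drinking water for 7 days followed by 2 weeks of plain water, and tumors were taken on day 98. Cre under the villin promoter acts in the intestinal epithelium, from which enteroendocrine cells also arise, so the immune, muscle and nerve cells of a *VP* tumor keep *Trp53*. Values are TPM, a measure of transcript abundance scaled for transcript length and to the same total in each tumor, so levels can be compared between genes, but the number of reads behind a value is unknown.

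Enteroendocrine cells are the scattered hormone-secreting cells of the gut lining. They arise from crypt stem cells through a short-lived progenitor that expresses the transcription factor *Neurog3*, and then mature under factors such as *Neurod1*. Mature cells store their products in dense granules built with the chromogranins *Chga* and *Chgb*. In the colon the main kinds are L cells, which release the peptides encoded by *Gcg* (glucagon-like peptides), *Pyy* (peptide YY) and *Insl5* (insulin-like peptide 5), and enterochromaffin cells, which make serotonin with the enzyme encoded by *Tph1*. *Sst* (somatostatin) marks D cells, and *Cck* (cholecystokinin) belongs mainly to cells of the small intestine.

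The promoter windows of 4 members that the comparison turns on, with that of *Sst*, are shown so that their control regions can be read beside the values. They are RefSeq windows in build GRCm38.p6, from 250 bases before to 50 bases after the start of transcription, written 5′ to 3′ on the gene's own strand. Capitals mark the E-box CANNTG, the sequence class read by basic helix-loop-helix factors, to which *Neurog3* and *Neurod1* belong, and the cyclic AMP response element TGACGTCA.
Pyy, chr11:102107783-102108082, minus strand: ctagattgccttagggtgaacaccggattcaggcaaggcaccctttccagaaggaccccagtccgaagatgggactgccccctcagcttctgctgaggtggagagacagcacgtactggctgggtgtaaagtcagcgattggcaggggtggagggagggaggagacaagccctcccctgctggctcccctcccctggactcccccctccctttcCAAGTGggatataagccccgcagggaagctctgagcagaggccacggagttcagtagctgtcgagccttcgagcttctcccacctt
Gcg, chr2:62483604-62483903, minus strand: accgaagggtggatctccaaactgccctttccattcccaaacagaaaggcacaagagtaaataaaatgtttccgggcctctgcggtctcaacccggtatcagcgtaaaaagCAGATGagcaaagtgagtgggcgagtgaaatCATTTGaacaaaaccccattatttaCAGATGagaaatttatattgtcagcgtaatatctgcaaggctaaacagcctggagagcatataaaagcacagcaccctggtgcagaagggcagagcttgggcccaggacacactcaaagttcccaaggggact
Chga, chr12:102554691-102554990, plus strand: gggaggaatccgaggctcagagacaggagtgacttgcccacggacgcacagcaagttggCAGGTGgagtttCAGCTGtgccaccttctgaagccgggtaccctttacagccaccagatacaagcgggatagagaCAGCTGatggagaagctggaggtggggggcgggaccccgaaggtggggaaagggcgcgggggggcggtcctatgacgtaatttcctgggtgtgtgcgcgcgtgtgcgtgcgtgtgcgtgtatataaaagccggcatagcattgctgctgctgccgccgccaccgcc
Chgb, chr2:132781392-132781691, plus strand: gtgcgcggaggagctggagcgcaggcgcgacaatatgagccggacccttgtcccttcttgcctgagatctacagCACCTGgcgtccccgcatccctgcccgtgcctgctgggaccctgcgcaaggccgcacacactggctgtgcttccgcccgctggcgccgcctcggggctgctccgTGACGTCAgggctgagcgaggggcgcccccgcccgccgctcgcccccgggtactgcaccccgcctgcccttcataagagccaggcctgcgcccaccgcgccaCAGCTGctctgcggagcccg
Sst, chr16:23890795-23891094, minus strand: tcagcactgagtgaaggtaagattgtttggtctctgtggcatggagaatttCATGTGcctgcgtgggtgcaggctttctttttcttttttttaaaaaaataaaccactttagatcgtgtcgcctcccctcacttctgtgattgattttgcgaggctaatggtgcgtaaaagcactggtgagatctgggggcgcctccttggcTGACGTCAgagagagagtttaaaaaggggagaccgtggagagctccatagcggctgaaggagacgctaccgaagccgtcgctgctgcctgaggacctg
All 10 members had a RefSeq window, 13 windows in all, of which the 2 for *Pyy* overlap and the upstream one is shown. An E-box lay in 12 of the 13 windows, beside 72.3% of 32851 windows of the same length over all genes. The element TGACGTCA lay in 2 of the 13, 72 bases upstream of the *Chgb* start and 48 bases upstream of the *Sst* start, beside 1.79% of all windows. Both motifs were searched on both strands, and neither TGACGTCA match overlapped an E-box. These matches describe the letters only, since binding was not measured in these tumors.

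*Trp53*, the targeted gene, was at 124.94, 99.30 and 147.45 TPM in *Trp53fl/fl* tumors, against 38.45, 32.79 and 27.83 TPM in *VP* tumors (limma adjusted p = 0.0207). Every *VP* tumor was below every *Trp53fl/fl* tumor, as the labels imply. Between 14857 and 15234 genes reached 1 TPM in a tumor, and the median log2 fold change over the 15117 genes tested was -0.07. All fold changes are differences of log2(TPM + 1), *VP* minus *Trp53fl/fl*, which understate the change of genes near or below 1 TPM.

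Before the genotypes are compared, the levels of the members can be put in order, since TPM are scaled for length. *Pyy* stood far above the rest, with a mean of 265 TPM over the 6 tumors. *Insl5* followed with 27.9 TPM, *Chgb* with 19.7 TPM, *Chga* with 18.1 TPM and *Gcg* with 9.30 TPM. *Sst*, *Tph1* and *Cck* had means of 6.93, 3.33 and 2.26 TPM, and the transcription factors *Neurog3* and *Neurod1* of 0.525 and 0.298 TPM. Of the neighbours in this order, only *Pyy* and *Insl5* had ranges over the tumors that did not overlap. *Gcg* was above *Sst* in 4 of 6 tumors.

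**Figure D1:**
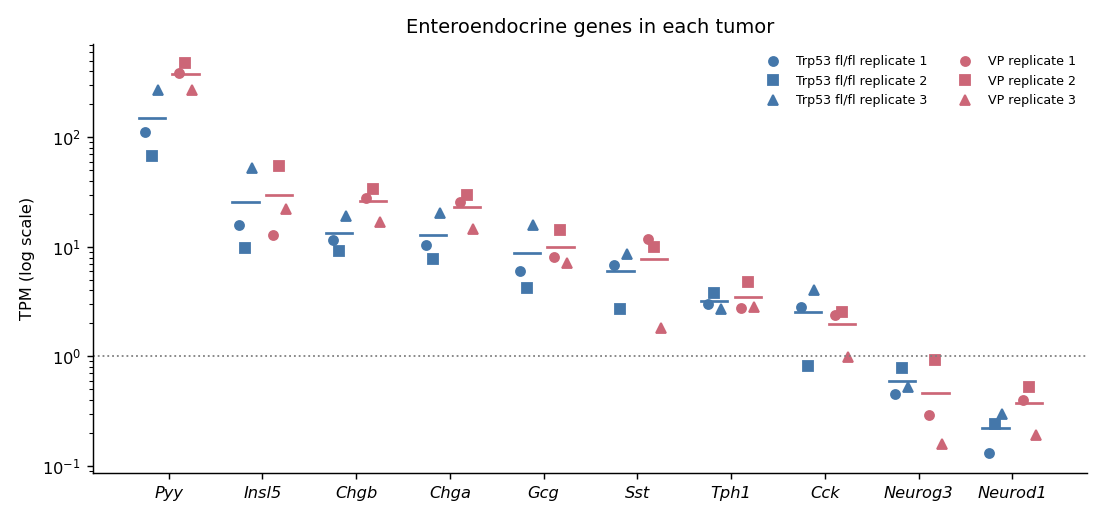
TPM of each of the 10 enteroendocrine genes (log axis) in the 3 *Trp53fl/fl* and the 3 *VP* tumors, 1 point per tumor, with a bar at the mean of each genotype and a dotted line at 1 TPM. *Pyy* lies above all other members in every tumor, and its 3 *VP* points lie above its 3 *Trp53fl/fl* points.

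None of the members passed the test across all genes, which called 0.165% of the genes tested (25 genes, 0.0794% higher and 0.086% lower in *VP*). The largest difference was that of *Pyy*, whose mean was 2.52 times as high in *VP* tumors, followed by *Chgb* and *Chga*, while *Gcg*, *Insl5*, *Tph1*, *Cck* and *Sst* had log2 fold changes of at most 0.30 in size. Of the 8 members tested, 2 (*Pyy* and *Chgb*) had an unadjusted p under 0.05 with higher values in *VP*, beside 4.51% of all genes tested, and 0 were lower at that level, beside 8.0%. The median of the 8 log2 fold changes was 0.30, and 7 were above 0. *Neurod1* and *Neurog3* stayed below the filter of 1 TPM in at least 3 tumors and were not part of that fit. In bulk tumor RNA, fewer cells of a type and less RNA per cell cannot be told apart, nor can more cells and more RNA per cell.

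*Pyy* (ENSMUSG00000017311), the most abundant of the L cell hormones, was at 111.03, 67.36 and 272.37 TPM in *Trp53fl/fl* tumors, against 390.91, 473.39 and 273.76 TPM in *VP* tumors. The *VP* tumors were all higher, which held for 6.03% of all genes tested (19.3% in either direction), but the lowest of them was almost level with the highest *Trp53fl/fl* tumor, and the 2 others stood well apart. The genotype means were 150 ± 108 TPM (SD, n = 3) and 379 ± 100.3 TPM (SD, n = 3). The log2 fold change was 1.54 (standard error 0.48, 95% interval 0.41 to 2.66), with a limma unadjusted p of 0.0145 and an adjusted p of 0.317.

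The other products of L cells had smaller estimates, with wide intervals. *Gcg* (ENSMUSG00000000394), the precursor of the glucagon-like peptides, was at 5.99, 4.23 and 15.91 TPM in *Trp53fl/fl* tumors, against 8.17, 14.33 and 7.17 TPM in *VP* tumors. The groups overlapped, with the highest value in a *Trp53fl/fl* tumor, and the log2 fold change was 0.30 (standard error 0.45, 95% interval -0.76 to 1.36, limma adjusted p = 0.796). *Insl5* (ENSMUSG00000066090), an orexigenic peptide of distal colon L cells, was at 15.72, 9.80 and 52.16 TPM and at 12.73, 55.16 and 22.09 TPM in the same order. Each genotype had 1 tumor far above its other 2, and the log2 fold change of 0.30 had a 95% interval of -1.32 to 1.91 (limma adjusted p = 0.872). *Trp53fl/fl* replicate 3 was the highest of its genotype for *Pyy*, *Gcg* and *Insl5* alike.

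The chromogranins, which package hormones in the granules of all enteroendocrine kinds, lay between *Pyy* and *Gcg* in the size of their difference. *Chgb* (ENSMUSG00000027350) was at 11.49, 9.26 and 19.17 TPM in *Trp53fl/fl* tumors, against 28.10, 33.53 and 16.92 TPM in *VP* tumors. *VP* replicate 3 fell below *Trp53fl/fl* replicate 3, so the groups overlapped, and the other *VP* tumors were above all *Trp53fl/fl* tumors. Its log2 fold change was 0.93 (standard error 0.32, 95% interval 0.18 to 1.69), with a limma unadjusted p of 0.0221 and an adjusted p of 0.341. *Chga* (ENSMUSG00000021194) was at 10.33, 7.83 and 20.35 TPM and at 25.63, 29.68 and 14.58 TPM, with the same tumors high and low as for *Chgb*. Its log2 fold change was 0.86 (standard error 0.38, 95% interval -0.03 to 1.74, limma adjusted p = 0.408). Without *Trp53fl/fl* replicate 3 the log2 fold changes of *Pyy*, *Chgb*, *Chga* and *Gcg* were 2.08, 1.21, 1.22 and 0.79. In that fit 4 members had a limma unadjusted p under 0.05, with the lowest adjusted p at 0.118. Leaving out *Trp53fl/fl* replicate 2 instead lowered the same estimates to 1.08, 0.72, 0.59 and -0.054, with 1 member under 0.05. The shares of all genes under 0.05 in these 2 fits are not given here, so the counts have no background.

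**Figure D2:**
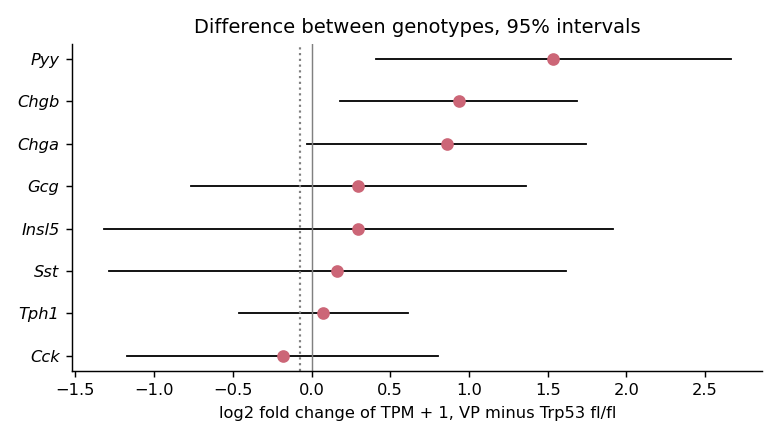
Log2 fold change of TPM + 1, *VP* minus *Trp53fl/fl*, for the 8 enteroendocrine genes that passed the expression filter, with points at the limma estimate and bars for its 95% interval, a solid line at 0 and a dotted line at the median of all genes tested (-0.07). The intervals of *Pyy* (0.41 to 2.66) and *Chgb* (0.18 to 1.69) lie above 0, and those of the other genes include 0.

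*Tph1*, *Cck* and *Sst* had the lowest mean levels of the 8 members tested and overlapped between genotypes. *Tph1* (ENSMUSG00000040046), the rate-limiting enzyme of serotonin synthesis outside the nervous system, was at 3.02, 3.81 and 2.72 TPM in *Trp53fl/fl* tumors, against 2.75, 4.82 and 2.85 TPM in *VP* tumors. It had the narrowest interval of the 8 members, with a log2 fold change of 0.07 and a 95% interval of -0.46 to 0.61 (limma adjusted p = 0.905). *Cck* (ENSMUSG00000032532) was at 2.80, 0.81 and 4.06 TPM and at 2.40, 2.53 and 0.98 TPM, and was the 1 tested member whose fold change was below 0 (-0.18, 95% interval -1.17 to 0.80, limma adjusted p = 0.869). For both genes the groups overlapped.

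*Sst* (ENSMUSG00000004366), which encodes the inhibitory peptide somatostatin, was at 6.81, 2.72 and 8.57 TPM in *Trp53fl/fl* tumors, against 11.70, 9.93 and 1.82 TPM in *VP* tumors. The lowest and the highest values were both in *VP* tumors, and its log2 fold change was 0.16 (95% interval -1.29 to 1.62, limma adjusted p = 0.925). Somatostatin is also made by enteric neurons, many of which lie between the muscle layers. The summed TPM of 7 smooth muscle markers was 544, 407 and 636 in the *Trp53fl/fl* tumors and 704, 1071 and 321 in the *VP* tumors, so that the tumors lowest in *Sst*, *Trp53fl/fl* replicate 2 and *VP* replicate 3, were also the lowest of their genotypes in muscle markers. The summed TPM of 12 enteric neuron markers was 39.8, 28.9 and 32.8 and 54.3, 50.2 and 24.3 in the same order, and 4 of the 12 were below 1 TPM in all tumors. Of the others, the neuropeptide gene *Vip* was at 6.98, 1.86 and 4.91 TPM and at 12.63, 18.13 and 1.42 TPM, lowest in the same tumors as *Sst*. *Prph*, *Uchl1*, *Nos1*, *Stmn2* and *Gap43* were also lowest of each genotype in those tumors, while *Ret* and *Tubb3* were not. *Ret*, the most abundant of the 12, was at 10.03, 15.78 and 7.54 TPM and at 14.40, 6.13 and 8.79 TPM. *Tubb3* was lowest of the *VP* tumors in replicate 1, at 3.76 TPM. *Cck* was lowest of each genotype in the same tumors as *Sst*. So were *Pyy*, *Gcg*, *Chga* and *Chgb*, while *Insl5* and *Tph1* were not, so this order is not particular to *Sst* and *Cck*. What part the muscle layer or nerve cells had in these values was not tested.

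**Figure D3:**
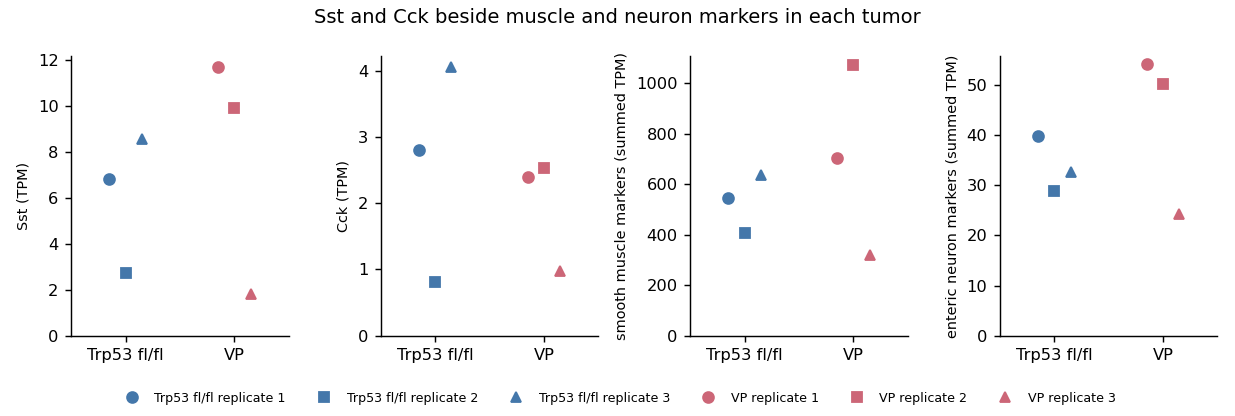
TPM of *Sst* and of *Cck* and the summed TPM of 7 smooth muscle and 12 enteric neuron markers in each tumor, 1 point per tumor, with the same symbol for the same tumor in each panel. *VP* replicate 3 is lowest for *Sst* (1.82 TPM) and lowest for both marker sums (321 and 24.3).

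The fate-determining transcription factors stayed below 1 TPM in all tumors, and the number of reads behind such low values is unknown. *Neurog3* (ENSMUSG00000044312), the progenitor factor, was at 0.45, 0.79 and 0.53 TPM in *Trp53fl/fl* tumors, against 0.29, 0.93 and 0.16 TPM in *VP* tumors. *Neurod1* (ENSMUSG00000034701), which acts after it, was at 0.13, 0.24 and 0.30 TPM and at 0.40, 0.53 and 0.19 TPM. The groups overlapped for both genes, and a two-sided exact permutation test of the means gave p = 0.6 for *Neurog3* and p = 0.3 for *Neurod1*, where 3 tumors against 3 cannot go below 0.1.

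*Pyy* took a larger share of the members' RNA in every *VP* tumor than in any *Trp53fl/fl* tumor. It made up 66.2%, 63.0% and 68.8% of the summed TPM of the 10 genes in the *Trp53fl/fl* tumors and 80.9%, 75.8% and 80.4% in the *VP* tumors. The shares did not overlap, while the sum of the other 9 genes did, at 39.5 to 124 TPM in *Trp53fl/fl* and 66.8 to 151 TPM in *VP* tumors. This share and the ratios of members that follow were formed after the values had been seen.

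*Pyy* per *Gcg*, a ratio between a pair of L cell hormones, was 18.5, 15.9 and 17.1 in the *Trp53fl/fl* tumors and 47.8, 33.0 and 38.2 in the *VP* tumors. The ratio hardly varied among *Trp53fl/fl* tumors, although their *Pyy* level spread widely, and each *VP* tumor was well above them. The means were 17.2 ± 1.31 (SD, n = 3) and 39.7 ± 7.52 (SD, n = 3), and the ratio of the geometric means was 2.29. Each tumor left out in turn gave 2.07 to 2.49. Of the 15116 genes other than *Gcg*, 0.542% had a ratio to *Gcg* with every *VP* tumor above every *Trp53fl/fl* tumor.

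*Pyy* per *Chga* was 10.7, 8.60 and 13.4 in the *Trp53fl/fl* tumors and 15.3, 15.9 and 18.8 in the *VP* tumors, a ratio of the geometric means of 1.55. Again the genotypes did not overlap, which held with *VP* higher for 0.245% of the genes other than *Chga* when divided by it. *Pyy* was also higher in every *VP* tumor relative to *Insl5*, *Cck* and *Sst*, and overlapped relative to *Chgb* and *Tph1*. Among all 28 pairs of the 8 tested members, 9 ratios did not overlap between genotypes, 5 of them with *Pyy* as the numerator. The others were *Chga* and *Chgb*, each relative to *Gcg* and to *Cck*. The 28 ratios reuse the same 8 genes, so they are not independent and partly repeat the differences of *Pyy* and the chromogranins. A share over pairs of all genes is not given here, so the count of 9 has no background. *Chga* per *Gcg* was 1.72, 1.85 and 1.28 in the *Trp53fl/fl* tumors and 3.14, 2.07 and 2.03 in the *VP* tumors. Each of the 9 gave the smallest p that a two-sided exact permutation test of 3 against 3 allows, 0.1, which is 0.311 after Benjamini-Hochberg adjustment over the 28 pairs.

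**Figure D4:**
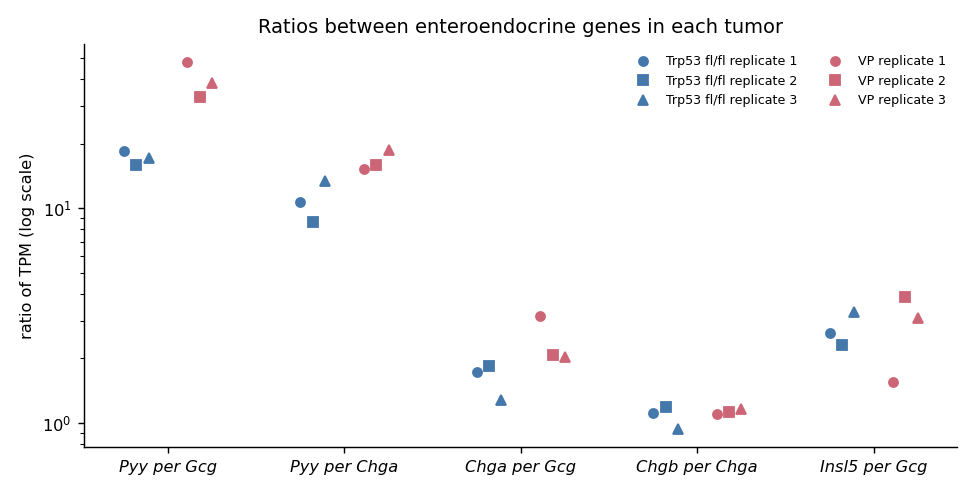
Ratios of TPM between pairs of enteroendocrine genes (log axis) in each tumor, 1 point per tumor, by genotype, from left to right *Pyy* per *Gcg*, *Pyy* per *Chga*, *Chga* per *Gcg*, *Chgb* per *Chga* and *Insl5* per *Gcg*. *Pyy* per *Gcg* lies between 15.9 and 18.5 in *Trp53fl/fl* and between 33.0 and 47.8 in *VP* tumors.

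The chromogranins kept nearly the same proportion in all tumors, with *Chgb* per *Chga* between 0.942 and 1.18. Over the 6 tumors, which include both genotypes and share their scaling, log2(TPM + 1) of *Chga* had a Pearson r of 0.989 with *Chgb* (exact permutation p = 0.00278, adjusted over 7 members 0.0194) and a Spearman rho of 1.0 (exact permutation p = 0.00278), and r was 0.974 without the 2 tumors farthest from the median of *Chga*. With *Pyy* r was 0.966 (exact permutation p = 0.00556, adjusted 0.0194) and rho 0.943 (exact permutation p = 0.0167), and r was 0.916 without those 2 tumors. *Gcg* had an r of 0.832 (exact permutation p = 0.0444, adjusted 0.104) and a rho of 0.829 (exact permutation p = 0.0583), which fell to an r of 0.576 without them, so that this relation rests on those tumors. For *Insl5*, *Sst*, *Cck* and *Tph1* r was 0.648, 0.699, 0.552 and 0.111, with exact permutation p-values from 0.158 to 0.881, and 0.132, 0.503, 0.214 and -0.930 without those 2 tumors. Their rho was 0.657, 0.771, 0.371 and -0.086, with exact permutation p-values from 0.103 to 0.919. With 3 tumors in each genotype, r within a genotype could not be tested.

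Among all genes tested, *Chgb* ranked 6th and *Pyy* 35th in likeness to *Chga* by Pearson r over the 6 tumors. The genes above *Chgb* included *Bst1* (0.999), *Hip1r* (0.997), *Tmem63a* (0.994) and *Atp2a3* (0.990). *Bst1*, an ADP-ribosyl cyclase of the cell surface, was at 1.76, 1.32 and 3.43 TPM in *Trp53fl/fl* tumors, against 4.50, 4.93 and 2.66 TPM in *VP* tumors. High coefficients are common when 6 values are compared with 15117 genes, so this order is a description.

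Beyond the 10 genes, 6 lists of genes with roles in enteroendocrine cells were examined, and no gene of any list passed the test across all genes. Of 14 other hormones and peptides, 9 were tested, with a median log2 fold change of 0.75. Of the 9, 3 had an unadjusted p under 0.05, all with higher values in *VP*, beside 4.51% of all genes tested. The limma adjusted p was 0.278 for *Adm*, 0.317 for *Penk* and 0.369 for *Tac1*. *Adm*, which encodes the vasodilator adrenomedullin, was at 7.27, 7.90 and 5.06 TPM in *Trp53fl/fl* tumors, against 18.82, 12.37 and 10.70 TPM in *VP* tumors. *Penk*, the precursor of enkephalins, was at 6.17, 5.02 and 6.96 TPM and at 9.68, 15.36 and 8.40 TPM. For both genes every *VP* tumor was above every *Trp53fl/fl* tumor, which held for 6.03% of all genes tested. *Tac1*, the substance P precursor of enterochromaffin cells and enteric neurons, was at 15.06, 11.13 and 15.05 TPM and at 36.13, 37.95 and 14.20 TPM, with *VP* replicate 3 lowest in its genotype here too. *Gip*, *Ucn3*, *Gast* and *Npw* were listed at 0 in all tumors.

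Of 22 transcription factors of the lineage, 7 were tested, 6 with a log2 fold change below 0 and 1 above, and the median was -0.38. An unadjusted p under 0.05 with lower values in *VP* was found for 2 of the 7, beside 8.0% of all genes tested. *Sox4*, which acts in progenitor cells of several lineages, was at 106.86, 96.88 and 93.10 TPM in *Trp53fl/fl* tumors, against 55.31, 54.48 and 69.10 TPM in *VP* tumors. Every *VP* tumor was below every *Trp53fl/fl* tumor, which held for 13.3% of all genes tested, and the log2 fold change was -0.73 (limma adjusted p = 0.131). *Foxa1*, a forkhead factor of the gut epithelium, was at 61.46, 56.42 and 57.82 TPM and at 48.57, 42.68 and 43.38 TPM, also without overlap (log2 fold change -0.38, limma adjusted p = 0.291). *Rfx3*, a factor of cilia and endocrine cells, had -0.42 on the same scale (limma adjusted p = 0.450). *Atoh1*, the factor of all secretory cells of the gut, had a log2 fold change of -0.26, with overlapping values of 23.38, 20.24 and 28.98 TPM against 17.75, 20.98 and 21.11 TPM. These factors are also expressed outside enteroendocrine cells. The 15 factors that were not tested went both ways, 9 with a higher and 6 with a lower mean TPM in *VP*, and 12 of the 22, *Neurog3* and *Neurod1* among them, were below 1 TPM in all tumors.

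The machinery that cuts, amidates and releases hormones was balanced, with 10 of 20 tested genes above 0 and a median log2 fold change of -0.00. *Pam*, the amidating enzyme that completes peptide YY, was the most abundant, at 96.65, 106.13 and 88.37 TPM in *Trp53fl/fl* tumors, against 102.00, 82.99 and 109.98 TPM in *VP* tumors, without separation of the genotypes. *Scg5*, the chaperone of prohormone convertase 2, was at 1.16, 0.92 and 1.02 TPM and at 2.55, 3.26 and 1.21 TPM (log2 fold change 0.67, limma adjusted p = 0.388). *Stx1a*, a syntaxin of the release machinery, was at 15.41, 17.15 and 17.49 TPM and at 12.93, 9.07 and 12.36 TPM (log2 fold change -0.52, limma adjusted p = 0.317). *Cpe*, which trims prohormones after the first cut, and *Cplx2*, which acts at vesicle fusion, had log2 fold changes of 0.23 and -0.62 and overlapped between genotypes.

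In the serotonin pathway, 1 of 8 tested genes had an unadjusted p under 0.05, a share no larger than the 12.5% of all genes tested. This was *Slc6a4*, the transporter that takes serotonin back into epithelial cells, at 1.23, 0.48 and 2.47 TPM in *Trp53fl/fl* tumors, against 6.49, 4.35 and 3.25 TPM in *VP* tumors. The groups did not overlap, which held with *VP* higher for 6.03% of all genes tested. The log2 fold change was 1.30 (standard error 0.35, limma adjusted p = 0.291), whereas *Tph1*, at the start of the pathway, had 0.07. The vesicle transporter *Slc18a1*, the degrading enzyme *Maoa* and the cofactor-recycling enzyme *Qdpr* overlapped between genotypes, with log2 fold changes of -0.45, 0.14 and 0.08.

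Of 21 sensors by which these cells read the gut contents, 7 were tested, 2 with an unadjusted p under 0.05 and higher values in *VP*, beside 4.51% of all genes tested, and 3 with lower values, beside 8.0%. *Trpa1*, the irritant channel of enterochromaffin cells, was at 3.16, 2.62 and 3.12 TPM in *Trp53fl/fl* tumors, against 1.41, 1.59 and 1.23 TPM in *VP* tumors, all *VP* tumors being lower, as for 13.3% of all genes (log2 fold change -0.72, limma adjusted p = 0.268). For the glucose transporter *Slc5a1* the log2 fold change was 0.59 (limma adjusted p = 0.341), and for the fatty acid receptor *Ffar4* it was 0.28 (limma adjusted p = 0.381). *Abcc8*, the sulfonylurea receptor of hormone-secreting cells, named after its values were seen, was at 0.10, 0.13 and 0.14 TPM and at 1.08, 0.74 and 0.84 TPM, separated between genotypes but below the filter. *Gpbar1* and *Casr*, also below the filter, were likewise higher in every *VP* tumor, at no more than 0.57 and 0.05 TPM. The share of genes below the filter that separate is not given here.

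Receptors for the members' hormones were mostly weak, with 6 of 23 tested. *Glp2r*, the receptor of a *Gcg* product, was at 2.66, 3.61 and 1.78 TPM in *Trp53fl/fl* tumors, against 4.79, 5.06 and 7.55 TPM in *VP* tumors (log2 fold change 0.89, limma adjusted p = 0.301). It did not overlap between genotypes, which held with *VP* higher for 6.03% of all genes tested, although its ligand gene did. The serotonin receptor *Htr4*, the somatostatin receptor *Sstr2* and the peptide YY receptor *Npy1r* had log2 fold changes of 0.62, 0.42 and 0.27, and all 3 overlapped. *Rxfp4*, the receptor of *Insl5*, was at most 0.15 TPM.

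**Figure D5:**
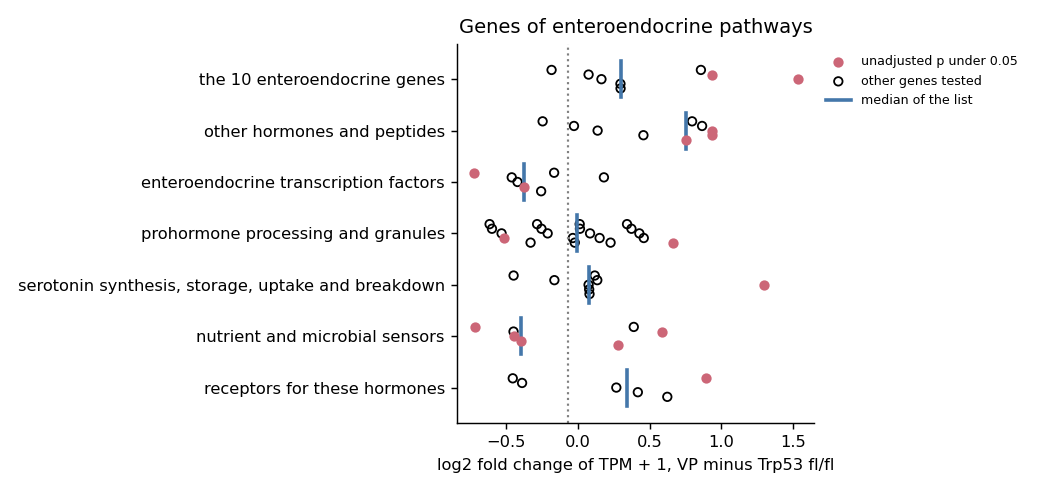
Log2 fold change of TPM + 1, *VP* minus *Trp53fl/fl*, of each tested gene in the 10 enteroendocrine genes and in 6 lists of related genes, 1 point per gene, filled where the unadjusted limma p was under 0.05, with a bar at the median of each list and a dotted line at the median of all genes tested (-0.07). The medians run from -0.39 for the sensors to 0.75 for the other hormones and peptides.

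Markers of other cells moved with genotype to different degrees beside *Pyy* and the chromogranins. The summed TPM of 12 epithelial markers was 10718 to 11244 in the *Trp53fl/fl* and 12201 to 13352 in the *VP* tumors. By themselves, 3 of the 12 (*Krt19*, *Cldn7* and *Lgals4*) were higher in every *VP* tumor, beside 6.03% of all genes tested, and the others overlapped. Centring each tumor on these markers moved the log2 fold change of *Pyy* to 1.34. Its limma unadjusted p rose from 0.0145 to 0.0226. The limma adjusted p of 0.128 comes from a fit in which all genes shifted (median -0.27). Goblet, tuft, mature colonocyte and enteric glia marker sums overlapped between genotypes. The glia sum was mostly *Erbb3* (38.95 to 52.95 TPM), the only 1 of its 6 markers tested, and the tuft sum mostly *Avil* (30.41 to 83.07 TPM). Among the tested genes of these lists, *Clca1* (goblet) and *Car1* (colonocyte) were lower in every *VP* tumor, beside 13.3% of all genes tested. *Sh2d6* (tuft) was higher in every *VP* tumor, beside 6.03%. Of 10 neutrophil markers, 7 had an unadjusted p under 0.05 with higher values in *VP*, beside 4.51% of all genes tested. They summed over the 10 to 495 to 1111 TPM in the *Trp53fl/fl* and to 1575 to 2590 TPM in the *VP* tumors, whereas the sum of 5 pan-leukocyte markers overlapped. The part of these other cells in the enteroendocrine values was not tested.

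*Ppy*, which encodes pancreatic polypeptide and is the neighbour of *Pyy* on chromosome 11 in the RefSeq gene order, was examined after its values were seen because the genes are related in sequence, and how reads matching both were assigned is not given in the sources used here. It was at 9.85, 8.46 and 9.94 TPM in *Trp53fl/fl* tumors, against 14.06, 25.10 and 12.24 TPM in *VP* tumors (log2 fold change 0.74, limma adjusted p = 0.341). Every *VP* tumor was higher, as for *Pyy* and for 6.03% of all genes tested, and *Ppy* amounted to 3.60% to 12.6% of the *Pyy* level. *Ins1* and *Ins2*, the insulin genes that define islet beta cells, were listed at 0 in all tumors.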

How the data were processed

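RNA-seq was made from poly(A)-selected RNA of dissected tumors, read from both ends at 150 bp. The authors deposited TPM per gene, with 2 decimals, for each tumor without pooling. The submitters' processing notes name HISAT2, StringTie and mm9, and versions are not given in the sources used here. The files carry no gene coordinates, and RefSeq promoter windows are of GRCm38.p6, another build.

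TPM keep no read number, so no count test was made, the depth is unknown, and only the 3 tumors per genotype give the precision. Column sums were 999964 to 1000067. No columns held identical values. Because every tumor is scaled to one total, a TPM also reflects the tumor's other genes. Labels do not say whether replicates of a genotype are separate mice or what else differed, so p-values measure the spread between these tumors.

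Genes reaching 1 TPM in 3 or more tumors were tested on log2(TPM + 1) with limma 3.58.1 in R 4.3.3 (empirical Bayes with trend, Benjamini-Hochberg adjustment over all genes tested, threshold 0.05), after a test on simulated data. Ratios and single values were compared by exact permutation tests in scipy 1.17.1. The 10 genes and all lists were chosen with earlier results of these data known. From each list the text names genes with an adjusted p under 0.05, otherwise the 3 lowest unadjusted p and the 2 highest mean TPM, and further the 5 genes most like *Chga*. Some genes under this rule are not reported here. *Trp53* was the check of the genotype. Other genes are said to be chosen after their values were seen, or serve as background for a list. Alternatives were a pseudocount of 0.1, no filter, 0.5 TPM in at least 2 tumors, quantile normalization, centring on 12 epithelial markers, median-of-ratios rescaling, a replicate block, no trend, and each tumor left out.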

Additional observations from a re-analysis of the deposited data

How the results depend on the processing

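None of the 10 genes had a limma adjusted p under 0.05 in any of the 14 alternatives. *Pyy* (adjusted p 0.118 to 0.664), *Chgb* (0.160 to 0.682) and *Chga* (0.224 to 0.705) kept a higher value in *VP* tumors in all of them. The count of members with an unadjusted p under 0.05 was 2, and 1 to 4 with each tumor left out. The share of all genes at that level is not given for the alternatives. Their median log2 fold change of 0.30 ranged from -0.051 (without *VP* replicate 2) to 0.88 with each tumor left out. Of all genes, 25 were called, 7 without a filter, and 6 to 28 with each tumor left out. Epithelial centring gave 50 genes, of which 28.0% were higher against 48.0% in the reported analysis, and moved the median of all genes to -0.27. It lowered the members' median to 0.098 and the log2 fold changes of *Gcg* and *Insl5* from 0.30 to 0.098 and 0.097. It turned the log2 fold changes of *Sst* to -0.035, *Tph1* to -0.12, *Pam* to -0.19, *Maoa* to -0.064 and *Qdpr* to -0.12. Centring takes the marker mean of a tumor off all its genes, so it lowered every log2 fold change by the same amount. With each tumor left out, the ranges that crossed 0 were -0.054 to 0.79 for *Gcg*, -0.26 to 0.96 for *Insl5*, -0.24 to 0.85 for *Sst*, -0.13 to 0.19 for *Tph1*, -0.61 to 0.13 for *Cck*, -0.072 to 0.13 for *Pam* and -0.76 to 0.14 for *Slc18a1*. *Pyy* per *Chga* gave 1.38 to 1.73 in those fits. The cause of the shifts with each tumor left out was not tested. Same-numbered tumors did not deviate together over the genes tested (correlations of their deviations 0.0185, -0.0520 and 0.0175). With 3 tumors per genotype this cannot show whether the numbers pair the tumors. The replicate block gave 10 called genes, 7 of them higher, and 1 member with an unadjusted p under 0.05.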
